A study of Rattus norvegicus with 63 samples.

Results

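Gene expression in the striatum was compared between drug-naive rats that had been conditioned with amphetamine at 1.25 mg/kg and then self-administered it, and drug-naive rats given saline throughout. The 3 amphetamine arrays of this group were set against saline arrays 1 to 3 of the same cohort and region, which share their level of the BioB hybridisation control, so 6 of the 63 arrays enter the comparison. The series measured how psychostimulant reinforcement changes transcription in 2 brain regions, prefrontal cortex and striatum, of male Wistar rats; the striatal dissection joined the nucleus accumbens to the front of the caudate putamen. A second cohort received a stimulant at 5 mg/kg before the behavioural tests. Rats arrived at 4 weeks of age, and injections began at 6 weeks. Both groups compared here were injected with saline 2 times a day for 7 days, which is what drug-naive means. The amphetamine rats were then trained for conditioned place preference with 1.25 mg/kg amphetamine intraperitoneally and took amphetamine intravenously at 0.1 mg/kg per infusion, while the control rats received saline at both steps. Brains were taken a day after the last session. The labels bound the comparison as a model: stimulant rats were picked for the most robust self-administration, no such choice is given for the controls, and the design text speaks both of single rats and of pooled RNA, so the p-values measure the spread between these arrays only.

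Amphetamine makes nerve terminals release dopamine and noradrenaline, and repeated doses also raise circulating corticosterone. In the striatum, dopamine acts on projection neurons that carry the receptors Drd1 or Drd2, and the tissue also holds interneurons, astrocytes and the oligodendrocytes that make myelin. Brain cells build their own cholesterol and fatty acids, since lipoproteins hardly cross the blood-brain barrier. The genes of that supply are switched on together by sterol regulatory element-binding proteins (SREBP) when sterols run short, and oligodendrocytes and astrocytes are heavy users of them. Glucocorticoids act through the receptor Nr3c1, which induces a set of genes in neurons, glia and endothelium within hours.

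Values are log2 of the deposited signal, floored at 1, and differences are log2 amphetamine minus saline 1 to 3, so a positive difference means a higher signal in amphetamine rats; each difference is given with its standard error (SE). The 6 arrays were alike in overall signal: their median signal lay between 139.9 and 155.6, and the correlation between arrays was 0.944 to 0.952 within a group and 0.941 to 0.951 between groups. The difference between striatal and cortical marker genes was 6.10, 4.71 and 5.35 in the amphetamine arrays and 5.87, 5.99 and 5.70 in the saline arrays, all within the striatal range of 3.72 to 6.23 and far above the prefrontal range of -1.63 to 0.29. Amphetamine 2 was the lowest of the 6 and had the most signal for the cortical neuron genes Slc17a7 (8.71, against 7.00 and 7.47 in the other amphetamine arrays and 7.08 to 7.34 in saline) and Neurod2 (8.34, against 6.43 and 7.08 in the other amphetamine arrays and 7.07 to 7.35 in saline). Saline 1 is called prefrontal in a label of its own and striatal in its title and tissue, and its markers were striatal. The 3'/5' signal ratio of the actin control probes, which rises as RNA is degraded or shortened, was higher in every amphetamine array (log2 3.15 to 3.32) than in every saline array (2.71 to 2.77), while that of Gapdh was 0.58 to 0.65 in the amphetamine and 0.53 to 0.57 in the saline arrays. The part of the actin ratio in the results below was not tested. With the Gapdh ratio as a covariate the number of genes that passed was larger than without it, which does not stand in for a test of the actin ratio.

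In the striatum of amphetamine rats, genes of lipid synthesis (Scd, Acss2, Dhcr7, Cyp51) and the astrocyte gene Gfap fell against saline 1 to 3. The glucocorticoid-responsive genes Sult1a1, Cebpb, Fkbp5 and Klf15 and the heat shock gene Dnajb1 rose. Saline arrays 4 and 5, which were not in the test, reached the amphetamine range for Sult1a1, Cebpb and Klf15. With all 5 saline arrays as the control, 0 of 23 glucocorticoid-responsive genes passed. Of 8531 genes tested, 45 passed an adjusted p of 0.05 (0.527%; limma over all striatal groups, Benjamini-Hochberg), 13 of them higher (0.152%) and 32 lower (0.375%) in amphetamine rats. Without adjustment, 983 genes (11.5%) had a p under 0.05. The median difference of all genes was 0.004, with 51.1% of genes above 0 and 48.9% below. In all 45 genes the 3 amphetamine arrays and the 3 saline arrays did not overlap, which held for 740 genes higher (8.67%) and 806 lower (9.45%) of those tested. The largest rise was that of Sult1a1, 5.04-fold, and the largest fall that of Scd, whose signal was 2.60-fold lower. The count rests on few arrays: it was 16 without amphetamine 1, 8 without amphetamine 3 and 13 without saline 3. Acss2, Idh1, Cyp51, Gfap, Scd, Sirt2 and Zdbf2 passed whichever of the 6 arrays was left out, and every other passing gene missed the threshold in some of these runs, with Sult1a1, Col11a2 and Mid1ip1 passing in none.

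**Figure D1:**
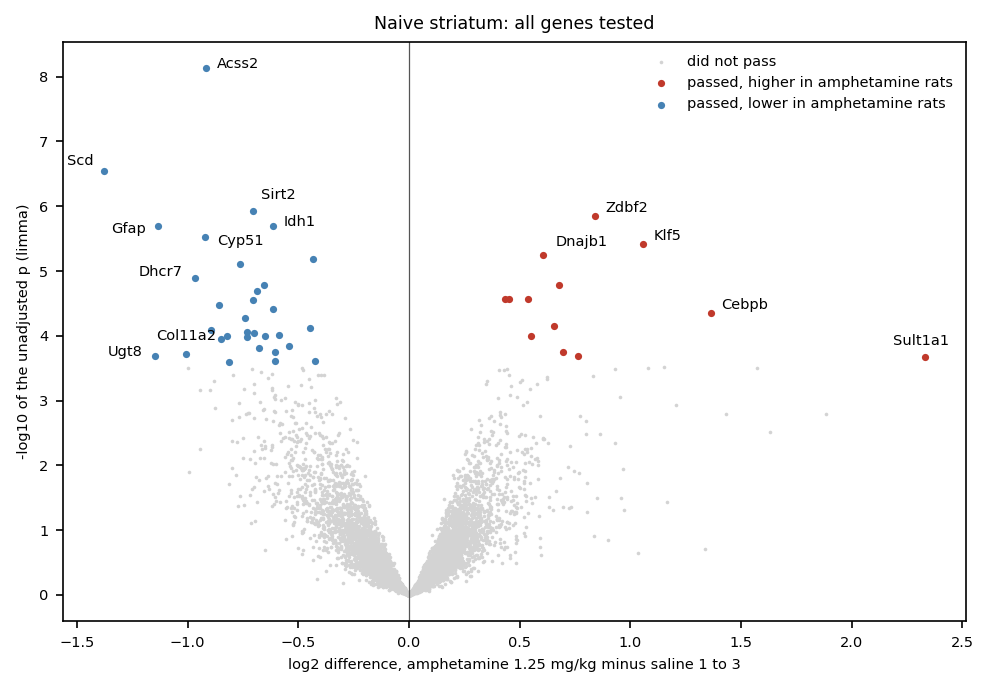
Each point is 1 of the 8531 genes tested, with the log2 difference (amphetamine 1.25 mg/kg minus saline 1 to 3) on the horizontal axis and -log10 of the unadjusted limma p on the vertical axis; red points passed an adjusted p of 0.05 and were higher in amphetamine rats, blue points passed and were lower, grey points did not pass. Acss2 stands highest on the left with a difference of -0.92, and Sult1a1 farthest to the right with 2.33.

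Cholesterol synthesis genes lay below their saline levels along the route, from the isoprenoid steps to the last reductase. All 19 sterol synthesis genes tested had a difference below 0 (48.9% of all genes). In 14 of them the amphetamine arrays all lay below saline 1 to 3 (9.45% of all genes). Of the 19, 5 passed, all lower (0.375% of all genes passed in that direction). The median difference of the 19 was -0.62, against 0.004 for all genes. Summed over the list, the signal was 14849 to 18976 in the amphetamine arrays and 24764 to 29028 in the saline arrays. The number that passed was 1 without amphetamine 1, 2 without amphetamine 3, 3 without saline 1 and 2 without saline 3.

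The isopentenyl diphosphate isomerase Idi1, which readies the isoprenoid units for assembly, had 9.56, 10.41 and 9.96 in the amphetamine arrays and 10.93, 10.63 and 10.92 in the saline arrays. Every amphetamine value lay below every saline value, closest between amphetamine 2 and saline 2, and Idi1 fell by 0.85 ± 0.19 (SE, adjusted p = 0.0281). Squalene epoxidase, Sqle, which catalyses the step at which oxygen enters the future sterol, had 8.94, 9.10 and 9.13 in the amphetamine arrays and 9.82, 9.68 and 9.89 in the saline arrays. The groups stood well apart, and Sqle fell by 0.74 ± 0.15 (adjusted p = 0.0196). Lanosterol demethylase, Cyp51, had 10.89, 11.49 and 11.31 in the amphetamine arrays and 12.06, 12.08 and 12.31 in the saline arrays. It was lowest in amphetamine 1, the groups did not overlap, and its signal was 1.89-fold lower in amphetamine rats (-0.92 ± 0.16, adjusted p = 0.00362). Dhcr7, the reductase of the final step to cholesterol, had 8.54, 8.82 and 8.90 in the amphetamine arrays against 9.82, 9.73 and 9.63 in the saline arrays. The gap between the groups was larger than the range within either, and Dhcr7 fell by 0.97 ± 0.18 (adjusted p = 0.00909).

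Insig1, the endoplasmic reticulum protein that holds SREBP back when sterols are plentiful and is itself an SREBP target, had 10.00, 10.13 and 9.99 in the amphetamine arrays and 10.55, 10.89 and 10.77 in the saline arrays. The amphetamine arrays were nearly equal and all below the saline arrays, and Insig1 fell by 0.70 ± 0.15 (adjusted p = 0.0269). The regulator gene Srebf2 itself had 10.01, 9.86 and 10.19 in the amphetamine arrays and 10.00, 10.21 and 10.12 in the saline arrays, overlapping groups with a difference of -0.09 ± 0.12. Nearest to passing was Acat2, the cytosolic thiolase at the start of the route, at 8.59, 9.34 and 9.09 in the amphetamine arrays and 9.68, 9.76 and 9.97 in the saline arrays (-0.79 ± 0.20, adjusted p = 0.0551). The amphetamine values of Mvk, Msmo1, Tm7sf2, Sc5d, Lss, Fdft1, Fdps and Nsdhl also all lay below the saline values without passing, while those of Mvd, Pmvk, Hsd17b7 and Ebp overlapped them.

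The fall of Acss2 had the smallest p of all genes tested. Acss2 encodes the cytosolic acetyl-CoA synthetase, which turns acetate into the building block of both sterols and fatty acids. Its values were 10.12, 10.45 and 10.17 in the amphetamine arrays and 11.12, 11.12 and 11.24 in the saline arrays. The saline arrays were almost the same and all of them far above the amphetamine arrays, and the signal was 1.89-fold lower in amphetamine rats (-0.92 ± 0.11, adjusted p = 6.28e-05).

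Since sterol genes moved together, the 250 bases before their annotated starts were searched for CCAAT, the box bound by NF-Y, a usual partner of SREBP, on both strands, and for the sterol regulatory element written as TCACNCCAC. Of the 19 sterol genes tested, 16 had an entry in RefSeq (GRCr8), and 13 of these (81.2%) held CCAAT, against 34% of 33465 rat promoters. That share covers all entries and was not limited to the genes tested here, so it is not a matched background. The share was 63.2% of 19 heat shock promoters, 47.6% of 21 glucocorticoid-responsive promoters and 41.2% of 17 fatty acid promoters, so other lists also lay above the share of all promoters. The element TCACNCCAC was in none of the 16 and in 0.974% of all promoters. Of the sterol genes that passed, Idi1 and Insig1 held the box, Cyp51 and Dhcr7 did not, and Sqle had no entry. These are matches of letters and do not show binding. The promoters of 3 genes that fell and hold the box, and of Dhcr7, which fell and has no match, are printed from the upstream end to the base before the start, with each CCAAT box in capitals; it lies on the opposite strand in each case and therefore reads ATTGG. The windows are chr17:66547525-66547774 (minus strand) for Idi1, chr4:8057770-8058019 (minus strand) for Insig1, chr3:164464453-164464702 (plus strand) for Acss2 and chr1:208444184-208444433 (plus strand) for Dhcr7.
Idi1: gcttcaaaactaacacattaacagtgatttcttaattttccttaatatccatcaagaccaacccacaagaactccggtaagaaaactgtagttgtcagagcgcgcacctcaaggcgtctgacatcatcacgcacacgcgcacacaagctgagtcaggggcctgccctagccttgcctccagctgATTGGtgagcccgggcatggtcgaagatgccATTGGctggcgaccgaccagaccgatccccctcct
Insig1: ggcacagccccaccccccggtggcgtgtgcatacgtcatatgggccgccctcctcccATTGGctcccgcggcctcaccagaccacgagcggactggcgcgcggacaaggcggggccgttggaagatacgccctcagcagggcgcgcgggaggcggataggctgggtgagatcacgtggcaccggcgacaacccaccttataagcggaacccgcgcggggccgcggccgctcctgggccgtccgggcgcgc
Acss2: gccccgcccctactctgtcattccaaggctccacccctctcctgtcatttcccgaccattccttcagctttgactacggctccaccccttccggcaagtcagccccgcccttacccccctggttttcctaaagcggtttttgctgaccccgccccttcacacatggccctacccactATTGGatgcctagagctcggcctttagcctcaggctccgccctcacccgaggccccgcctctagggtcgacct
Dhcr7: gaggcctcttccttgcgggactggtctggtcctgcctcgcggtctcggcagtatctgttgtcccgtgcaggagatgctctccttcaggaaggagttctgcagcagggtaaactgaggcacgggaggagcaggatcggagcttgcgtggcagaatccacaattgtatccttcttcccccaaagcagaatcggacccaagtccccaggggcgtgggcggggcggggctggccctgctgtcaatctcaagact
Among all 32 genes that fell, 26 had an entry and 5 of them (19.2%) held the box, against 34% of all promoters.

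Among fatty acid genes, Scd and Elovl1 fell. Of 20 tested, 16 lay below 0 (48.9% of all genes) with a list median of -0.23, and 2 passed, both lower (0.375% of all genes). Scd, the desaturase that makes oleic acid from stearic acid, had 6.84, 7.22 and 7.36 in the amphetamine arrays and 8.21, 8.69 and 8.65 in the saline arrays. The lowest saline array lay well above the highest amphetamine array, and the signal was 2.60-fold lower in amphetamine rats (-1.38 ± 0.20, adjusted p = 0.00121). Its paralogue Scd2 had 14.21, 14.35 and 14.24 in the amphetamine arrays and 14.41, 14.50 and 14.61 in the saline arrays, a gap that did not pass (-0.24, adjusted p = 0.439).

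Elovl1, which lengthens saturated fatty acids for sphingolipids, had 9.78, 9.75 and 9.65 in the amphetamine arrays and 10.15, 10.34 and 10.50 in the saline arrays. No values overlapped, and Elovl1 fell by 0.61 ± 0.14 (adjusted p = 0.0399). Its relative Elovl5 differed by -0.38 ± 0.09 (adjusted p = 0.0551) and the desaturase Fads1 by -0.56 (0.0828). The genes of the synthesis core overlapped between the groups: fatty acid synthase, Fasn, had 11.19, 11.03 and 11.30 in the amphetamine arrays and 11.24, 11.49 and 11.46 in the saline arrays. The regulator Srebf1 had 9.73, 9.59 and 9.65 in the amphetamine arrays and 9.63, 9.85 and 9.78 in the saline arrays, also overlapping.

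**Figure D2:**
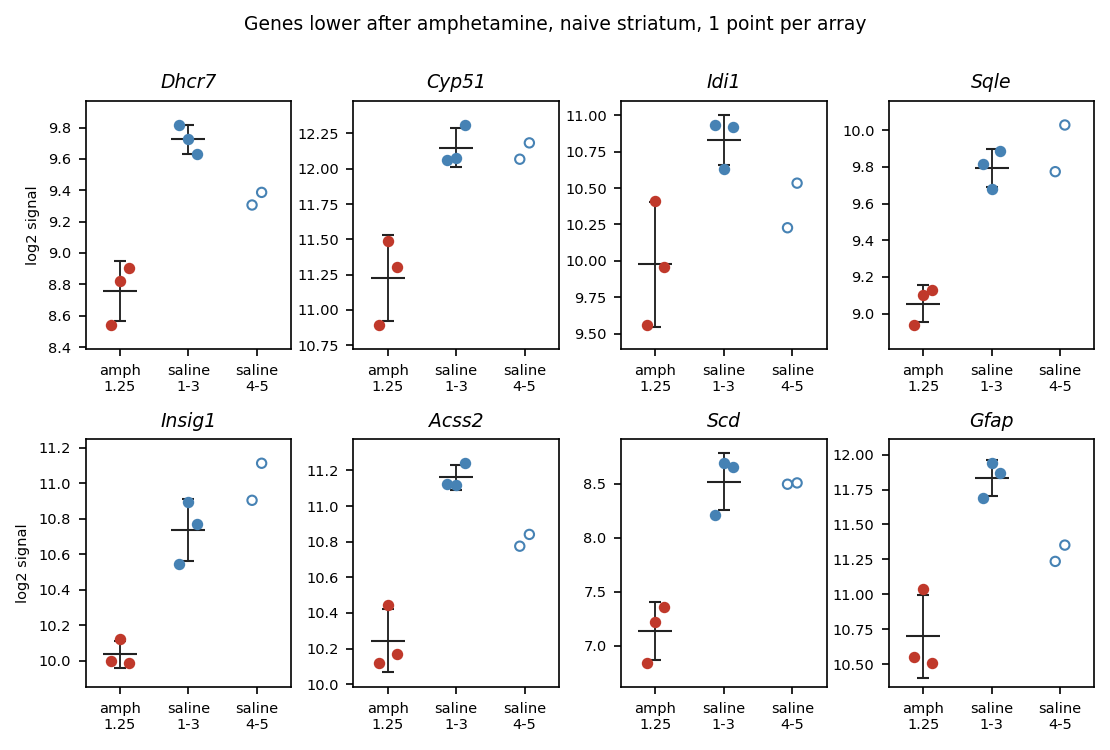
Log2 signal of 8 genes that fell, 1 panel a gene, with 1 point per array: amphetamine 1.25 mg/kg in red on the left, saline 1 to 3 in filled blue, and saline 4 and 5, of the other BioB level and not in the test, in open blue; bars give the mean ± SD of amphetamine and of saline 1 to 3 (n = 3 each). In every panel the red points lie below all filled blue points, and for Idi1 the open points reach into the red range.

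Among glial genes, Gfap and Ugt8 fell. Gfap, the intermediate filament of astrocytes, had 10.55, 11.04 and 10.51 in the amphetamine arrays and 11.69, 11.94 and 11.87 in the saline arrays. The groups were separated by more than their own ranges, and the signal was 2.19-fold lower in amphetamine rats (-1.13 ± 0.19, adjusted p = 0.00290). Of 19 astrocyte genes, Gfap alone passed, 15 lay below 0, and the median was -0.18. The water channel gene Aqp4 differed by -0.49 (adjusted p = 0.143), whereas Aldoc, S100b, Gja1 and Slc1a3 lay between -0.09 and -0.02. Gpr37l1 (-0.52, adjusted p = 0.0900) and Slc7a10 (-0.50, 0.0919) came nearest to passing after Gfap.

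Of 20 oligodendrocyte and myelin genes, 17 lay below 0 (48.9% of all genes), 12 with no overlap (9.45%), and 1 passed (0.375% passed lower). The list median was -0.47, and the summed signal was 96529 to 117071 in the amphetamine arrays and 115063 to 135906 in the saline arrays. Ugt8, which makes the myelin lipid galactosylceramide, had 9.30, 8.90 and 8.83 in the amphetamine arrays and 9.87, 9.99 and 10.62 in the saline arrays. The groups did not overlap, although saline 3 stood above the rest, and Ugt8 fell by 1.15 ± 0.27 (adjusted p = 0.0424). Fa2h, the hydroxylase of myelin sphingolipids, had 9.41, 9.47 and 9.32 in the amphetamine arrays and 10.08, 10.01 and 10.27 in the saline arrays (-0.72 ± 0.20, adjusted p = 0.106). The membrane protein gene Opalin had 10.76, 10.83 and 10.54 in the amphetamine arrays and 11.42, 11.39 and 11.43 in the saline arrays (-0.70 ± 0.20, 0.111). Both had clear gaps between the groups without passing. Mbp, the main myelin basic protein gene, had 15.08, 14.64 and 14.47 in the amphetamine arrays and 14.76, 14.59 and 14.68 in the saline arrays, overlapping with a difference of 0.06 ± 0.16. Cryab, a small heat shock protein gene on this list and on that of chaperones, went the other way, with 11.32, 11.35 and 11.50 in the amphetamine arrays and 10.64, 10.74 and 11.12 in the saline arrays. Its groups did not overlap, and the difference of 0.56 ± 0.25 did not pass (adjusted p = 0.397). The 3 amphetamine arrays were thus low for many myelin genes as well as for sterol genes, and in bulk tissue fewer cells of a type and less RNA per cell cannot be told apart. With the mean of the myelin markers as a covariate, an alternative added after the data were seen, 16 of the 19 sterol genes stayed below 0 and none passed, and 8 of all genes passed in place of 45.

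Sirt2, an NAD-dependent deacetylase abundant in oligodendrocytes, had 11.44, 11.79 and 11.56 in the amphetamine arrays and 12.36, 12.16 and 12.38 in the saline arrays. The groups were apart, and it fell by 0.70 ± 0.11 (adjusted p = 0.00290). Saline 4 and 5, not in the test, had 11.60 and 11.61 for Sirt2, inside the amphetamine range. No gene passed among 14 microglial genes (median -0.24, 11 below 0), 6 genes of oligodendrocyte precursors (-0.26, all 6 below 0), 5 of choroid plexus and ependyma (-0.42, all 5 below 0) or 15 of endothelium (-0.07, 10 below 0).

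Further genes fell outside these lists. Rras2, a Ras-like GTPase of growth factor signalling, had 9.15, 9.55 and 9.15 in the amphetamine arrays and 10.01, 10.07 and 10.05 in the saline arrays. The saline arrays were almost identical and above all amphetamine arrays, and Rras2 fell by 0.76 ± 0.14 (adjusted p = 0.00609). Pnlip, known as the pancreatic triglyceride lipase, had 8.45, 8.58 and 8.49 in the amphetamine arrays and 9.38, 9.24 and 9.48 in the saline arrays. Neither group spread by more than a fraction of the gap, and Pnlip fell by 0.86 ± 0.17 (adjusted p = 0.0144). The collagen genes Col11a2 (-1.01 ± 0.23, adjusted p = 0.0420) and Col4a5, of basement membranes (-0.69 ± 0.13, 0.0117), fell too. Also among the 15 largest falls were Fgfbp3, which binds fibroblast growth factors (-0.89 ± 0.19, adjusted p = 0.0264), Scrg1 (-0.82 ± 0.18, 0.0269), Micall1, of endocytic recycling (-0.81 ± 0.19, 0.0481), and Ddah2, which breaks down asymmetric dimethylarginine (-0.73 ± 0.16, 0.0271).

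Some of the other falls concern metabolism and are named here after their values were seen. The cytosolic isocitrate dehydrogenase Idh1, a source of NADPH, had 10.68, 10.93 and 10.69 in the amphetamine arrays and 11.33, 11.34 and 11.46 in the saline arrays. The groups were apart, and Idh1 fell by 0.61 ± 0.10 (adjusted p = 0.00290). The monocarboxylate transporter gene Slc16a1, which carries lactate and ketone bodies, fell by 0.61 ± 0.12 (adjusted p = 0.0156), Mid1ip1, an activator of acetyl-CoA carboxylase, by 0.65 ± 0.14 (0.0269), and Gamt, of creatine synthesis, by 0.70 ± 0.14 (0.0127). Fnta, the shared subunit of the enzymes that attach isoprenoids to proteins, fell by 0.43 ± 0.08 (adjusted p = 0.00559), and the tetraspanin gene Cd9 by 0.65 ± 0.12 (0.0101).

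Among glucocorticoid-responsive genes, Sult1a1, Cebpb, Fkbp5 and Klf15 rose in amphetamine rats. Of 23 tested, 21 lay above 0 (51.1% of all genes) with a median of 0.43. In 15 the amphetamine arrays all lay above saline 1 to 3 (8.67% of all genes). Of the 23, 4 passed, all higher (0.152% of all genes passed in that direction). The summed signal was 60891 to 74854 in the amphetamine arrays and 46318 to 51730 in the saline arrays. None passed without amphetamine 1, amphetamine 3, saline 1 or saline 3, and 1 passed without saline 2. Sult1a1, a phenol sulfotransferase that inactivates phenols and monoamines, had 10.26, 9.71 and 10.13 in the amphetamine arrays and 7.23, 7.88 and 7.999 in the saline arrays. The groups were separated by more than the spread of either, and the signal was 5.04-fold higher in amphetamine rats (2.33 ± 0.54, adjusted p = 0.0432). Cebpb, a transcription factor of inflammatory and metabolic responses, had 8.87, 8.57 and 9.12 in the amphetamine arrays and 7.42, 7.76 and 7.29 in the saline arrays. No values overlapped, and Cebpb was 2.57-fold higher (1.36 ± 0.28, adjusted p = 0.0174).

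Fkbp5, the co-chaperone that lowers the affinity of the glucocorticoid receptor for its hormone, had 10.59, 10.48 and 10.74 in the amphetamine arrays and 9.86, 9.93 and 9.73 in the saline arrays. All amphetamine values were higher, and Fkbp5 rose by 0.77 ± 0.18 (adjusted p = 0.0424). Klf15, a zinc finger factor of amino acid and glucose metabolism, had 9.67, 9.54 and 9.78 in the amphetamine arrays and 9.03, 9.06 and 8.81 in the saline arrays. The gap was wider than the range within a group, and Klf15 rose by 0.70 ± 0.16 (adjusted p = 0.0399). The kinase gene Sgk1 was close to passing, with 12.79, 12.02 and 12.13 in the amphetamine arrays and 10.56, 10.98 and 10.68 in the saline arrays (1.57 ± 0.38, adjusted p = 0.0514). Pdk4, the kinase that restrains pyruvate oxidation, had 9.36, 9.15 and 9.39 in the amphetamine arrays and 7.46, 7.68 and 7.86 in the saline arrays (1.63 ± 0.50, adjusted p = 0.154). Neither gene showed overlap. The receptor gene Nr3c1 had 10.21, 10.50 and 10.39 in the amphetamine arrays and 10.36, 10.35 and 10.62 in the saline arrays, overlapping with a difference of -0.08 ± 0.16.

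Saline arrays 4 and 5 of the same group, which had a lower BioB control signal (log2 6.63 and 6.50, against 9.71 to 10.06 in the 6 arrays compared) and were not in the test, bear on these counts. The haemoglobin gene Hbb was also lower in these arrays (10.54 and 9.48, against 12.43 to 14.47 in the 6). Their Gapdh 3'/5' ratio was higher (log2 1.14 and 1.16, against 0.53 to 0.65). Their values for glucocorticoid-responsive genes lay near those of the amphetamine arrays: Sult1a1 had 9.09 and 9.82, Cebpb 8.75 and 8.71, Klf15 9.54 and 9.72, and Sgk1 12.13 and 12.72. Of the 15 glucocorticoid-responsive genes with all amphetamine arrays above saline 1 to 3, the amphetamine arrays were also above saline 4 and 5 in 2 (13.3%), against 219 of the 740 genes of all kinds (29.6%). With all 5 saline arrays as the control, 0 of the 23 passed and 19 lay above 0. BioB level, Hbb, the Gapdh ratio and array cannot be told apart here. Among genes that fell, saline 4 and 5 had 10.77 and 10.84 for Acss2, 8.51 and 8.49 for Scd, 12.18 and 12.07 for Cyp51 and 11.24 and 11.35 for Gfap, all above every amphetamine value. Idi1 had 10.53 and 10.23 there, and Acat2 9.79 and 9.22, with saline 5 inside the amphetamine range for both genes. Sirt2 had 11.60 and 11.61, both inside the amphetamine range. Ugt8 had 9.08 and 9.70, with saline 4 inside that range, and Col11a2 7.79 and 7.61, with saline 5 inside it. Sirt2, Ugt8, Col11a2 and Idi1 did not pass with all 5 saline arrays. Of the 14 sterol genes that did not overlap, the amphetamine arrays lay below saline 4 and 5 as well in 7 (50%), against 335 of 806 genes of all kinds (41.6%), and of the 32 genes that fell, in 23 (71.9%). With all 5 saline arrays, 4 sterol genes passed, and 42 genes in all, 6 of them higher and 36 lower, with 24 of the 45 among them.

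Other genes that rose included factors of stress and growth. Klf5, a zinc finger transcription factor of growth and differentiation, had 9.73, 9.96 and 10.33 in the amphetamine arrays and 8.87, 9.04 and 8.94 in the saline arrays. The saline arrays were close together below all amphetamine arrays, and Klf5 was 2.08-fold higher (1.06 ± 0.18, adjusted p = 0.00413). Zdbf2, an imprinted zinc finger gene, had 10.18, 10.17 and 10.56 in the amphetamine arrays and 9.51, 9.39 and 9.48 in the saline arrays. No amphetamine value came near those of saline 1 to 3, and Zdbf2 rose by 0.84 ± 0.14 (adjusted p = 0.00290). Saline 4 and 5, not in the test, lay between, at 9.96 and 10.02. Dnajb1, the co-chaperone that hands unfolded proteins to Hsp70 and a classic heat shock gene, had 10.70, 10.65 and 11.02 in the amphetamine arrays and 10.12, 10.14 and 10.30 in the saline arrays. Amphetamine 3 was highest, the groups did not overlap, and Dnajb1 rose by 0.61 ± 0.11 (adjusted p = 0.00530). It alone passed among 22 cytosolic heat shock genes, of which 17 lay above 0 with a median of 0.14. Chordc1 (0.37, adjusted p = 0.150) and Bag3 (0.40, 0.483) were among those above 0, and the master regulator Hsf1 stood at -0.08.

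Epha3, an ephrin receptor of axon guidance, had 7.64, 7.64 and 7.86 in the amphetamine arrays and 7.08, 7.16 and 6.93 in the saline arrays. The groups did not overlap, and it rose by 0.65 ± 0.14 (adjusted p = 0.0251), alone among 28 axon guidance genes. Fbxo33, a substrate receptor of ubiquitin ligases, rose by 0.68 ± 0.13 (adjusted p = 0.0101). Glcci1, named for its induction by glucocorticoids in thymus, rose by 0.54 ± 0.11 (adjusted p = 0.0127), Ociad2 by 0.55 ± 0.12 (0.0269), the kinase gene Stk32c by 0.45 ± 0.09 (0.0127) and the lactosylceramide synthase gene B4galt6 by 0.44 ± 0.09 (0.0127). Of the 13 genes that rose, the amphetamine arrays were also above saline 4 and 5 in 7 (53.8%): Zdbf2, Klf5, Dnajb1, Fbxo33, B4galt6, Epha3 and Fkbp5. The margin was small for Epha3, with 7.56 and 7.57 in saline 4 and 5 against 7.64 in the lowest amphetamine array. The array carries 25 further probe sets for the 45 genes, of which 22 had the same sign, and all 11 of those above the signal filter did.

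**Figure D3:**
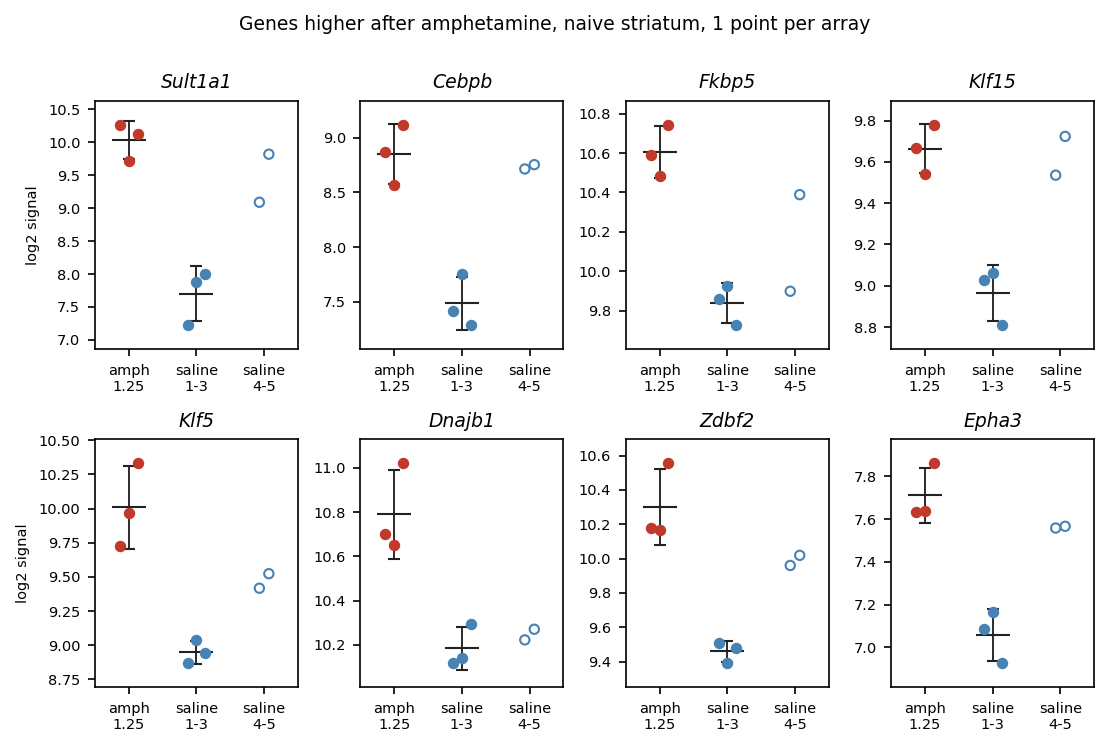
Log2 signal of 8 genes that rose, 1 panel a gene and 1 point per array, with amphetamine 1.25 mg/kg in red on the left, saline 1 to 3 in filled blue, and saline 4 and 5 (other BioB level, not in the test) in open blue; bars give the mean ± SD of amphetamine and of saline 1 to 3 (n = 3 each). The open points of Sult1a1, Cebpb and Klf15 reach the red range, while those of Klf5, Zdbf2 and Dnajb1 stay below it.

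Genes of striatal signalling did not pass, although some neuropeptides came close. Of 15 neuropeptide genes, 12 lay above 0 with a median of 0.25. Cartpt, the precursor of the CART peptide that psychostimulants are known to induce, had 10.05, 10.52 and 10.69 in the amphetamine arrays and 9.33, 9.69 and 9.01 in the saline arrays. All amphetamine values were higher, but the difference of 1.08 ± 0.26 missed the threshold (adjusted p = 0.0514). Neuropeptide Y, Npy, had 11.71, 11.71 and 11.51 in the amphetamine arrays and 11.34, 11.27 and 11.36 in the saline arrays (0.32 ± 0.09, adjusted p = 0.117). Peptides of the projection neurons overlapped between the groups: Tac1, the substance P precursor, differed by 0.30 (adjusted p = 0.317), prodynorphin, Pdyn, by 0.19 ± 0.23 (0.835), proenkephalin, Penk, by 0.09 (0.845) and neurotensin, Nts, by -0.26 (0.697).

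The dopamine receptor genes differed little. Drd1 had 12.94, 12.68 and 12.88 in the amphetamine arrays and 12.92, 12.64 and 12.46 in the saline arrays (0.16 ± 0.12, 95% interval -0.08 to 0.40), and Drd2 had 12.23, 11.78 and 11.90 in the amphetamine arrays and 11.92, 12.04 and 11.92 in the saline arrays (0.01 ± 0.12, -0.24 to 0.26). Both overlapped. The decarboxylase gene Ddc, of dopamine synthesis, had 7.36, 7.45 and 7.85 in the amphetamine arrays and 8.20, 8.10 and 8.70 in the saline arrays, without overlap but short of the threshold (-0.78 ± 0.25, adjusted p = 0.167). Rgs9, which ends signalling of dopamine receptors, differed by -0.39 (adjusted p = 0.234), Adora2a, the adenosine receptor of Drd2 neurons, by -0.05 (0.924) and Ppp1r1b, the phosphatase inhibitor DARPP-32, by -0.10 (0.787). No gene passed among 29 of the cAMP cascade (median -0.01) or 25 markers of projection neurons (0.01).

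Immediate early genes are switched on by neurons within minutes of activity, and Fos and Arc varied widely within both groups. Fos had 9.02, 9.99 and 10.38 in the amphetamine arrays and 8.89, 10.32 and 10.45 in the saline arrays, and Arc 8.54, 9.08 and 9.58 in the amphetamine arrays and 8.85, 9.38 and 9.87 in the saline arrays. Each group spanned more than 1 log2 unit for both genes, and the 95% interval of the Fos difference was -0.94 to 0.77. In both groups Fos and Arc rose from array 1 to array 3. Whether equally numbered arrays share a day or order was not tested. The orphan receptor gene Nr4a3 had 8.54, 9.17 and 9.87 in the amphetamine arrays and 7.76, 7.57 and 8.64 in the saline arrays, overlapping by a small margin (1.21 ± 0.33, adjusted p = 0.0919). None of the 17 activity genes passed, and 12 lay above 0. The circadian repressor Per2 had 10.27, 10.17 and 10.64 in the amphetamine arrays and 9.69, 9.84 and 9.79 in the saline arrays, without overlap (0.58 ± 0.21, adjusted p = 0.237), while its partner Per1 (0.22, 0.787), Dbp (-0.22, 0.513) and Nr1d2 (0.10, 0.670) differed less. None of 19 clock genes passed.

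Neuronal lists had medians above 0 with no gene passing. All 10 interneuron genes lay above 0 (median 0.30), as did 9 of 10 cortical excitatory genes (0.35), 25 of 34 channel genes (0.18) and 23 of 30 vesicle genes (0.10), against 51.1% of all genes. The cortical median was 0.65 without amphetamine 1 and 0.14 without amphetamine 2, and the interneuron median was 0.19 without amphetamine 1. Relative to the mean of saline 1 to 3, the cortical median of single arrays was 0.18, 1.01 and 0.25 in the amphetamine arrays and 0.54 and 0.77 in saline 4 and 5, and the interneuron median was 0.34, 0.05 and 0.35 in the amphetamine arrays and 0.10 and 0.57 in saline 4 and 5. For both lists saline 4 and 5 lay among the amphetamine arrays or beyond them. Rab3a, the GTPase of synaptic vesicles, came closest, with 11.89, 11.90 and 12.04 in the amphetamine arrays and 11.59, 11.54 and 11.49 in the saline arrays (0.41, adjusted p = 0.0514). Among cortical markers Nptx1, neuronal pentraxin, had 11.01, 11.60 and 11.44 in the amphetamine arrays and 10.49, 10.70 and 10.27 in the saline arrays (0.86, adjusted p = 0.155). The haemoglobin gene Hbb, a sign of blood in the tissue, had 14.47, 13.75 and 13.47 in the amphetamine arrays and 13.57, 12.43 and 13.48 in the saline arrays, where saline 2 was low. Saline 4 and 5 were lower still, at 10.54 and 9.48. With Hbb as a covariate 14 genes passed, among them 1 sterol gene and no glucocorticoid-responsive gene.

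**Figure D4:**
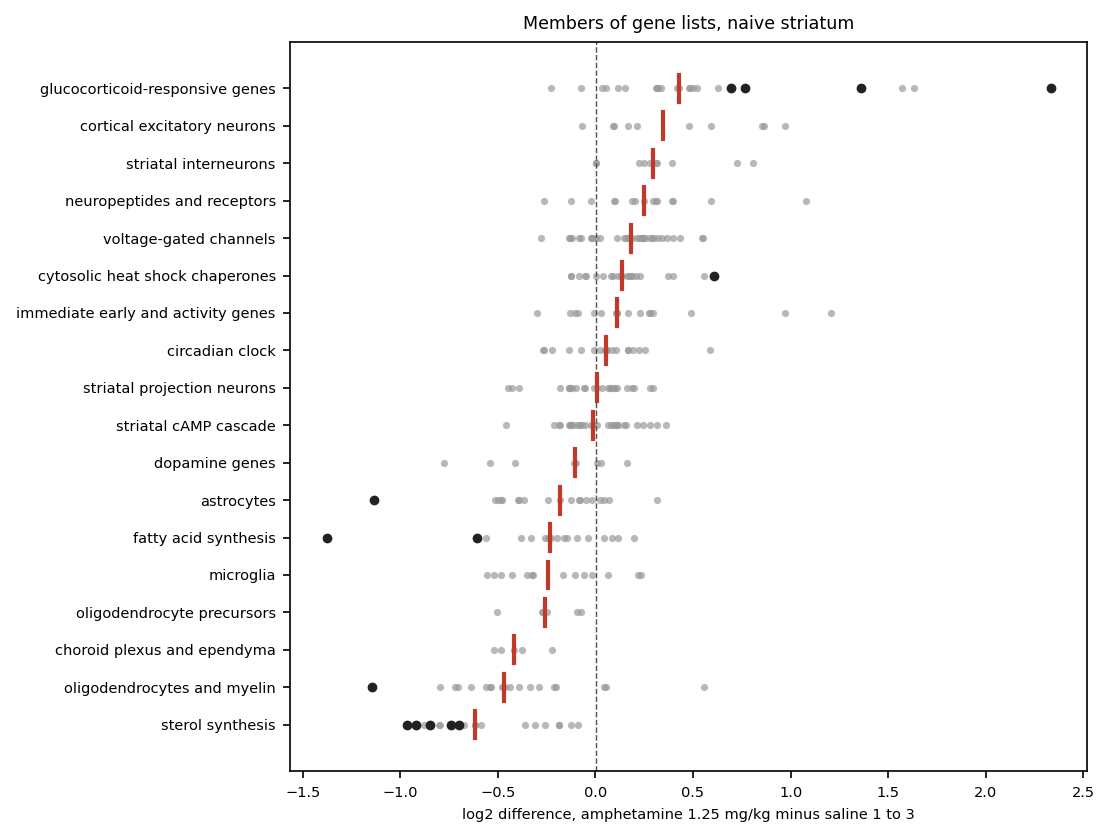
Each point is 1 gene of 1 of 18 lists, placed by its log2 difference (amphetamine 1.25 mg/kg minus saline 1 to 3); black points passed an adjusted p of 0.05, red ticks are list medians and the dashed line is the median of all genes. Sterol synthesis lies lowest with a median of -0.62 and glucocorticoid-responsive genes highest with 0.43.

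The list medians of single arrays, relative to the mean of saline 1 to 3, show how far each array carries these shifts. For sterol synthesis they were -0.73, -0.41 and -0.67 in the amphetamine arrays, -0.09, -0.04 and 0.09 in saline 1 to 3, and -0.02 and -0.15 in saline 4 and 5. Every amphetamine array was below every naive saline array, amphetamine 2 least so. For myelin genes they were -0.46, -0.48 and -0.51 in the amphetamine arrays, -0.02, -0.11 and 0.16 in saline 1 to 3, and -0.17 and -0.06 in saline 4 and 5, again without overlap. For glucocorticoid-responsive genes they were 0.61, 0.30 and 0.39 in the amphetamine arrays, -0.18, 0.08 and 0.11 in saline 1 to 3, and 0.30 and 0.55 in saline 4 and 5, which lie among the amphetamine arrays.

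**Figure D5:**
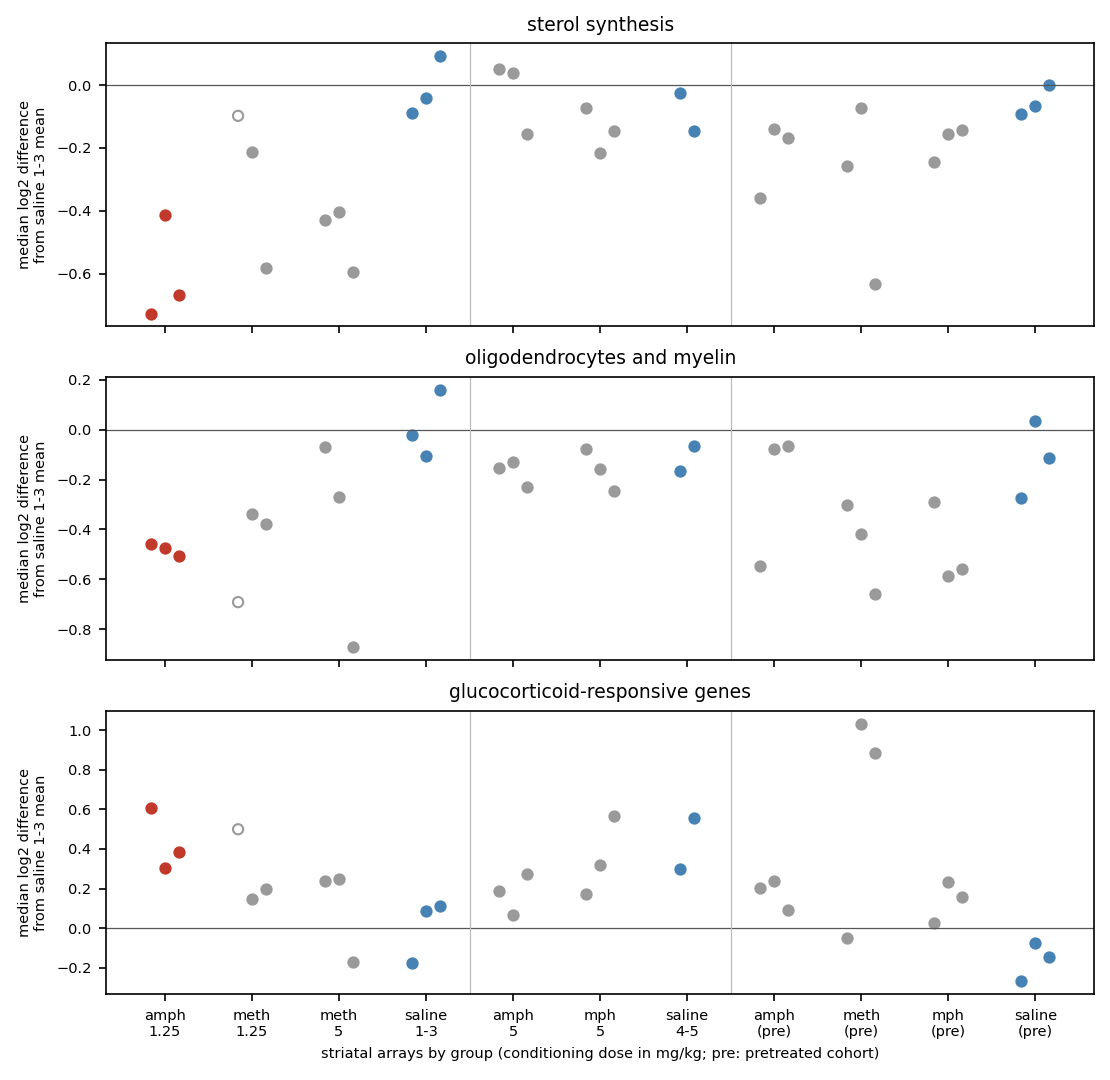
Median log2 value of 3 gene lists in each striatal array, relative to the mean of saline 1 to 3, with 1 point per array and 1 column per group: red for amphetamine 1.25 mg/kg, blue for saline, grey for other stimulants, open grey for the methamphetamine array of cortical profile, and vertical lines between the BioB levels and before the pretreated cohort (pre). Amphetamine 1.25 mg/kg lies between -0.73 and -0.41 for sterol synthesis, and saline 4 and 5 lie at 0.30 and 0.55 for glucocorticoid-responsive genes.

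The same dose was also profiled in the prefrontal cortex of naive rats, against saline 1 to 3 of that region, where 23 genes rose (0.270%) and 4 fell (0.0469%). Sult1a1 rose there as well, by 2.27 ± 0.31 (adjusted p = 0.000276). Glucocorticoid-responsive genes had a median of 0.64 with 6 of 23 passing, and sterol genes a median of -0.28 with all 19 below 0 and 1 passing. Prefrontal saline 4 and 5 were not in this comparison. Hbb in amphetamine 1 to 3 was 14.49, 13.42 and 13.55 in prefrontal cortex and 14.47, 13.75 and 13.47 in striatum. In saline 1 to 3 it was 13.77, 12.10 and 12.80 against 13.57, 12.43 and 13.48. Whether equal numbers mark the same rats was not tested, so the 2 regions may not be independent. In a fit of both regions, 0 of 8531 genes passed for the striatal minus the prefrontal effect (limma; 483 genes, 5.66%, had an unadjusted p under 0.05), so no gene here can be called particular to the striatum. The smallest p belonged to Stk32c (0.64 ± 0.13, adjusted p = 0.146), Pcp4l1 (-1.29 ± 0.28, 0.146) and Rgs9 (-1.45 ± 0.35, 0.210). The effects differed (striatum minus prefrontal cortex) by -1.12 for Scd (95% interval -1.71 to -0.54, adjusted p = 0.286), by -0.54 for Acss2 (-0.87 to -0.22, 0.431) and by 0.06 for Sult1a1 (-1.27 to 1.39).

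At the higher conditioning dose of 5 mg/kg 1 gene rose (0.0117%) and none fell in the naive striatum. That group was set against saline 4 and 5, its own BioB level. Hbb was lower in saline 4 and 5 (10.54 and 9.48) than at 5 mg/kg (12.97 to 13.41). Dose, BioB level and Hbb cannot be told apart in this comparison. The sterol list had a median of 0.09 there and the glucocorticoid-responsive list -0.20, with no gene of either passing. Acss2 averaged 10.88 ± 0.12 in rats at 5 mg/kg (SD, n = 3), against 10.77 and 10.84 in saline 4 and 5, a difference of 0.08 ± 0.12. In the test of the difference between the 1.25 mg/kg and 5 mg/kg effects 1 gene passed (0.0117%; 6.89% had an unadjusted p under 0.05), Acss2, at -0.99 ± 0.17 (95% interval -1.33 to -0.65, adjusted p = 0.0191). It did not pass without amphetamine 1, amphetamine 3 or saline 3. Next came Scd (-1.50 ± 0.30), Klf5 (1.31 ± 0.27) and Gfap (-1.33), all at an adjusted p of 0.0961, and for Sult1a1 the difference was 3.24 ± 0.82 (adjusted p = 0.219).

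Methamphetamine, which differs from amphetamine by a methyl group on the nitrogen, was given at the same conditioning dose of 1.25 mg/kg and could be compared directly in 1 pair of compounds. Of its 3 striatal arrays 1 had a cortical marker profile (-0.41) and was left out. No gene passed between the compounds (limma; 214 genes, 2.51%, had an unadjusted p under 0.05), which does not show that they act alike. Amphetamine minus methamphetamine, Acss2 differed by -0.38 (95% interval -0.63 to -0.12, adjusted p = 0.999) and Sult1a1 by 0.34 (-0.91 to 1.59). Against the shared saline arrays 1 to 3, Acss2 differed by -0.92 with amphetamine at 1.25 mg/kg, by -0.54 with methamphetamine at 1.25 mg/kg and by -0.71 with methamphetamine at 5 mg/kg. The sterol medians of these groups were -0.62, -0.37 and -0.48, and since they rest on the same saline arrays their likeness is not independent. In rats pretreated with amphetamine at 5 mg/kg and set against the saline arrays of their own cohort, the sterol median was -0.23 and the glucocorticoid-responsive median 0.34, with no gene of either list passing, Acss2 differed by -0.01 and Sult1a1 by 0.90.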

How the data were processed

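Striatal and prefrontal RNA was measured on Affymetrix rat arrays (31099 probe sets, 63 arrays). The deposited values are MAS5 signal intensities on a linear scale, per the submitters' processing notes; the MAS5 version is not given in the sources used here. The trimmed mean (2% from each end) is 500.1 to 500.2 on every array, so each array carries the same scale and only relative levels can be compared. Here the deposited intensity was floored at 1 and taken to log2; no value of the 6 arrays was floored among the genes tested. Probe sets were named from the platform annotation: 20832 have 1 gene symbol and 436 several, which were left unnamed. Each gene was represented by its probe set of highest mean over all arrays, and the 40% with the lowest mean over striatal arrays were left out, leaving 8531 of 14218 genes.

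Differences were tested with limma 3.58.1 in R 4.3.3 (1 mean per group, 31 striatal arrays in 11 groups, 20 residual degrees of freedom, eBayes with an intensity trend) and Benjamini-Hochberg adjustment over all genes tested. Naive saline was split by BioB level into arrays 1 to 3 and 4 and 5, and the methamphetamine array of cortical profile was left out. The test between regions used both regions (40 residual degrees of freedom) and treated all arrays as independent. On simulated data for the main comparison, run on 8531 genes, 23 of 50 genes changed by 0.5 log2 units were recovered, 47 of 50 at 1, 49 of 50 at 1.5 and 50 of 50 at 2, with 7 false calls among 176. The simulation drew independent noise for each gene, so shifts shared by many genes of an array were not simulated. It also gave 176 calls against 45 in the data, so these rates need not hold for the data.

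Over all genes tested, deviations of equally numbered amphetamine and saline arrays correlated at 0.02, -0.01 and 0.04, and 1 of 3 correlated best with its own number. The main test did not pair them. A shared order in smaller sets of genes, such as Fos and Arc, was not tested. Genes are named by a rule: up to 15 largest rises and 15 largest falls among passing genes without overlap, list members that pass or have the smallest p, and a fixed set of stimulant-related genes, of which Fosb, Bdnf and Drd3 fell below the signal filter. The genes, the 35 lists (616 genes tested) and the tests were chosen with earlier results of these data known. Alternatives covered normalization, filters, arrays, blocks and covariates.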

Additional observations from a re-analysis of the deposited data

Results flagged for a closer look

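The effect of amphetamine on Acss2, the cytosolic acetyl-CoA synthetase gene, differed between the conditioning doses in the naive striatum. The 1.25 mg/kg effect minus the 5 mg/kg effect was -0.99 ± 0.17 on the log2 scale (limma, adjusted p = 0.0191), each dose being set against the saline arrays of its own BioB level. The group mean was 10.24 ± 0.18 at 1.25 mg/kg, against 11.16 ± 0.07 in saline 1 to 3 (SD, n = 3 each), and 10.88 ± 0.12 at 5 mg/kg, against 10.77 and 10.84 in saline 4 and 5. All 3 arrays at 1.25 mg/kg lay below saline 1 to 3. The gene did not pass without amphetamine 1, amphetamine 3 or saline 3, or with the methamphetamine array of cortical profile kept. Dose, BioB level and the lower Hbb of saline 4 and 5 cannot be told apart.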

How the results depend on the processing

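In the 19 gene-level alternatives to the amphetamine 1.25 mg/kg comparison all 45 genes kept their direction wherever they were measured, but the number that passed depended on the setting. It was 68 with quantile normalization (24 higher, 44 lower), 87 with the 6 arrays alone, 68 with naive striatal arrays alone and 75 with the Gapdh 3'/5' ratio as a covariate. It was 14 with Hbb as a covariate and 8 with the myelin marker mean, the alternative added after the data were seen. With 1 array left out it ranged from 8 to 67. A constant before log2, other filters, no trend, the cortical array kept, all 5 saline arrays and all 12499 probe sets gave 30 to 65. With the replicate number as a block 51 genes passed, 42 of the 45 among them. Acss2 and Idh1 passed in all 19 and Sult1a1 in 7. The count for the difference between the 1.25 and 5 mg/kg effects, 1, became 2 with quantile normalization, 0 with the cortical array kept, and 0 to 2 with 1 array left out; those between regions and between compounds stayed 0 in the alternatives run. The median stayed negative for sterol synthesis (-0.74 to -0.39) and positive for glucocorticoid-responsive genes (0.29 to 0.55). Some medians changed sign: G-protein regulators -0.025 with all 5 saline arrays and -0.022 with Hbb (0.11 otherwise), MAP kinase genes -0.000334 without amphetamine replicate 3 and up to 0.068 without others (0.042 otherwise), oligodendrocyte precursors 0.000581 (-0.26 otherwise) and endothelium 0.41 (-0.07 otherwise) with the myelin mean. The other lists whose median changed sign in some alternative had medians between -0.07 and 0.11. The cause was not tested. With 3 arrays a group, the number of arrays limits the precision, most for small changes.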

Other observations

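Gene lists of general cell function stayed near the median of all genes in this comparison. Of 57 oxidative phosphorylation genes 27 lay above 0, with a median of -0.01, and of 39 ribosomal protein genes 29 lay above 0, with a median of 0.04. Among 22 endoplasmic reticulum stress genes 8 lay above 0 (median -0.02), and among 23 antioxidant genes 14 did (0.01). No gene of these lists passed. Receptors and enzymes of fast transmission were alike in this respect: 21 of 31 genes of glutamate receptors and postsynaptic proteins lay above 0 (median 0.04) and 9 of 14 genes of GABA signalling (0.09), with none passing. Of the 31, 7 had all amphetamine arrays below saline 1 to 3 (9.45% of all genes) and 3 all above (8.67%). Dlgap3 (-0.61, limma adjusted p = 0.0861) and Grin2c (-0.51, 0.157) were among the 7. Ribosomal genes had a median of -0.12 with the myelin marker mean as a covariate.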
